A study of Mus musculus with 3 samples.

Results

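In distal forelimb cells of mouse embryos at E12.5, 740 of the 20479 RNAP2 peaks lay at the 3' ends of protein-coding genes, away from any annotated transcript start and from any Med12 peak. They were 3.61% of the list (95% Wilson interval 3.37% to 3.88%). The peaks were chosen by measured values, namely their position, their width and the Med12 list. Each is narrower than 4000 bp, overlaps the 2 kb on either side of the 3' end of a coding gene, overlaps no interval of 1 kb on either side of a transcript start, and overlaps no Med12 peak. Their number, width, position and lack of Med12 are therefore descriptions. The 740 peaks belong to the 3' ends of 752 coding genes, which are 3.36% of the 22367 coding genes of the mm9 annotation used (GENCODE vM1).

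The series holds 3 samples, a ChIP-seq library made with an antibody to RNAP2 (Abcam ab5131), a library made with an antibody to Med12 and an input library. All came from dissociated and formaldehyde-fixed cells of distal forelimbs, dissected from embryos during normal gestation. The study's methods do not say which form of RNAP2 the antibody recognises, so scores at starts and ends may not reflect total RNAP2. No genetic change or treatment is named for the embryos. The text that comes with the series gives the stage as E11.5, whereas the sample labels and the methods give E12.5. Each antibody has 1 library, no replicate exists, and the lists do not give the number of reads behind a peak, so no test between conditions was possible. Intervals of shares and densities below cover counting error alone. The tissue was checked against marker genes of limb mesenchyme, most of which do not separate forelimb from hindlimb. An RNAP2 peak lay within 1 kb of a start of 13 of the 14 markers of distal limb mesenchyme, with Jag2 as the exception, and at 2 of 5 muscle and 1 of 4 endothelial markers. None of the 7 ectoderm, 5 blood, 5 neuron and 4 liver markers had one. A mixture of cell types and a difference in occupancy per cell cannot be told apart in these samples.

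RNAP2 transcribes protein-coding genes from the start to beyond the site where the transcript is cut and polyadenylated. The cut is directed by a hexamer, most often AATAAA, and by flanking elements of the nascent RNA, and the polymerase is released from the template further downstream. RNAP2 is known to slow near this site, so ChIP-seq can show a second accumulation at the end of an active gene besides the accumulation at its start. Med12 belongs to the kinase module of Mediator, the complex that links transcription factors at enhancers and promoters to RNAP2.

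The sequence at the 3' ends of the genes with the strongest peaks is shown first, because it holds the signal for the end of the transcript. Each line gives the last 30 bases of the annotated gene in mm9, 5' to 3' on the strand of the gene, with the hexamer AATAAA in capitals.
Zfp36 (chr7:29161803-29161832, minus strand): atttttaAATAAAatcttgagtgtgaactg
Fam120a (chr13:48974588-48974617, minus strand): gcttAATAAAaatctttattcttttagtat
Rpl12 (chr2:32819987-32820016, plus strand): AATAAAattgtatttagagaagcaaaccca
Uba7 (chr9:107886358-107886387, plus strand): ttcaacAATAAAaacttgttgacggaaggc
Gadd45b (chr10:80394920-80394949, plus strand): agagacattccAATAAActcgttaagcctt
Hbp1 (chr12:32611333-32611362, minus strand): atattcttgtatattatttcaAATAAAagg
Fbxw2 (chr2:34660034-34660063, minus strand): ctggaacagctagggctacacagagaaacc
Shf (chr2:122174628-122174657, minus strand): ggagccgacgccggccgcctgcgaaaagca
Of the 10 genes with the highest-scoring peaks, 6 had AATAAA in these bases and Hist1h2be had ATTAAA. Neither hexamer was found in the last 30 bases of Fbxw2, Shf and Gm10382. Over all 752 genes with a peak, AATAAA stood in the last 40 bases of 57.6% (54.0% to 61.1%), compared with 52.9% (52.2% to 53.6%) of all coding genes. The share was 59.2% (58.2% to 60.2%) among coding genes with an RNAP2 peak at a start, and its interval overlapped that of the genes with a peak at the 3' end. With ATTAAA counted too, the shares were 73.3%, 64.9% and 73.5%. These hexamers were searched for on the strand of the gene alone. Among members, AATAAA was found at 61.3% (55.4% to 67.0%) of the genes whose 3' end lay under the peak. The share was 62.1% (55.9% to 67.9%) where the peak lay wholly inside the gene and 48.4% (41.8% to 55.0%) where it lay wholly downstream. The interval of the downstream share did not overlap the others. Counting ATTAAA too gave 73.2% (67.6% to 78.2%), 77.4% (71.8% to 82.2%) and 66.8% (60.3% to 72.7%), with overlapping intervals.

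The central part of 5 of the 10 strongest peaks, those centred downstream of the gene with no annotated exon in the central 300 bases, is shown for its base composition. Each line holds 300 bases of mm9 around the peak centre, on the strand of the gene that ends nearby, with each CG in capitals.
Fbxw2 (chr2:34658024-34658323, minus strand): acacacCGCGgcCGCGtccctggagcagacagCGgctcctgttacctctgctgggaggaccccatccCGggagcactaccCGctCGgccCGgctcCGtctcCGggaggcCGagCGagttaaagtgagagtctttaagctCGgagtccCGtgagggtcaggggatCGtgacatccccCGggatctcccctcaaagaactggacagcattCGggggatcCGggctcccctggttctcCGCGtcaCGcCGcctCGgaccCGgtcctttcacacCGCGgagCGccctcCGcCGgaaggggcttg
Zfp36 (chr7:29160636-29160935, minus strand): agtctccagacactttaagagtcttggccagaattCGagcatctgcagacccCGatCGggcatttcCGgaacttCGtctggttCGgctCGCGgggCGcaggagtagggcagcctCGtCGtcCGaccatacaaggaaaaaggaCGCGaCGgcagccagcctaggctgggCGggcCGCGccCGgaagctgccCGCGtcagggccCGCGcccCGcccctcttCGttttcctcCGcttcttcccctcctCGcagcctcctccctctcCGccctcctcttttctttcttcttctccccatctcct
Rpl12 (chr2:32822374-32822673, plus strand): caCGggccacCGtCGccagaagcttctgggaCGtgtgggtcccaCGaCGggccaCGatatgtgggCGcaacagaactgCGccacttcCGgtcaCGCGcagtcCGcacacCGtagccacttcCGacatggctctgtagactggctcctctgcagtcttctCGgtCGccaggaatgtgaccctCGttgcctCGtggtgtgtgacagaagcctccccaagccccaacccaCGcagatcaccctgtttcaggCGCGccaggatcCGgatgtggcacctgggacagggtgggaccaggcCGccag
Fam120a (chr13:48974257-48974556, minus strand): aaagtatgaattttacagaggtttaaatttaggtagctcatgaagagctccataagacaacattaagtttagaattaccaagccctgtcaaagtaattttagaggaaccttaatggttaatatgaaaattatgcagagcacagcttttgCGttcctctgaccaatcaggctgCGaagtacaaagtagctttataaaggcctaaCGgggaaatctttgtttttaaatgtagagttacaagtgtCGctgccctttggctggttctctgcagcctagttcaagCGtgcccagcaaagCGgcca
Gm10382 (chr5:125873817-125874116, plus strand): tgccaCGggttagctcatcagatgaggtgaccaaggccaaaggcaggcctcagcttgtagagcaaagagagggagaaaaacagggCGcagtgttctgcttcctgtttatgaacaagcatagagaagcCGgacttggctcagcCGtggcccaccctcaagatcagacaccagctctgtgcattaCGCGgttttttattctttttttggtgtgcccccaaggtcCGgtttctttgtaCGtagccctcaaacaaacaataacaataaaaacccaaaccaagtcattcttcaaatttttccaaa
The sequences downstream of Fbxw2, Zfp36 and Rpl12 held 30, 28 and 24 CG and had a GC content of 67.7%, 63.7% and 64.7%. The sequences at the end of Fam120a and downstream of Gm10382 held 6 and 8 CG and had a GC content of 40.3% and 47.3%. Over the 740 peaks the median GC content was 44.7% and the median ratio of observed to expected CpG was 0.24. A peak was called CpG-rich when its whole length had a GC content over 50% and a ratio over 0.6. This held for 36 members (4.86%, 3.53% to 6.66%), for 1.06% of the 4829 RNAP2 peaks without Med12 elsewhere in genes, for 6.69% of the 2331 between genes and for 65.7% of the 7896 at transcript starts. Of the 5 peaks shown, only that of Fbxw2 was CpG-rich over its whole length, with ratios of 0.55 at Zfp36 and 0.56 at Rpl12. The members thus differed in composition from RNAP2 peaks at starts, and the interval for them lay above that of other peaks in genes (0.80% to 1.39%). In a later annotation (RefSeq, whose promoter sequences were matched to mm9), a start lay within 1 kb of 17 members (2.30%, 1.44% to 3.65%). The strongest peak of all was one of these.

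RNAP2 peaks were denser around coding 3' ends than in the sequence on either side. Density was counted as peak centres per Mb of sequence too far from a start for a peak of median width to reach it, and each base was assigned to its nearest coding 3' end. Sequence before the end was not limited to the gene, and lay upstream of it where the gene was shorter than the distance. Of the 22367 coding genes, 5841 were shorter than 5 kb. Peaks without Med12 numbered 5.44 per Mb (95% exact Poisson interval 5.11 to 5.77) from 20 to 5 kb before the 3' end. The density was 6.51 (5.78 to 7.29) from 5 to 2 kb before it, 11.2 (9.66 to 13.0) in the last 1 kb and 9.49 (8.07 to 11.1) in the first 1 kb after it. It fell to 4.58 (3.98 to 5.24) from 2 to 5 kb after the end and 2.93 (2.67 to 3.20) from 5 to 20 kb after it, where it was close to the 3.16 of all start-free sequence. The highest point value was thus in the last 1 kb, but its interval overlapped that of the first 1 kb after the end. The sequence before the end had more peaks than the sequence after it. Over the 2 kb on both sides the density was 9.01 (8.29 to 9.78), from 581 centres in 64.5 Mb. Peaks scoring at least 100 had the same shape, with 1.54 (1.37 to 1.73) from 20 to 5 kb before, 4.27 (3.32 to 5.42) in the last 1 kb and 0.97 (0.82 to 1.13) from 5 to 20 kb after.

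**Figure D1:**
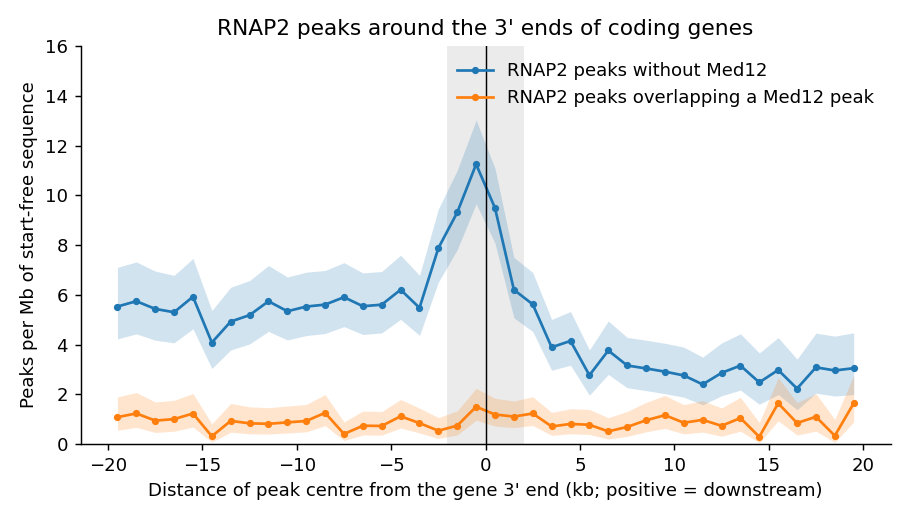
Density of RNAP2 peak centres (peaks per Mb of start-free sequence, vertical axis) against the distance from the nearest coding 3' end in kb (horizontal axis, positive downstream), in bins of 1 kb, with 95% Poisson bands. The line for peaks without Med12 is highest at 11.2 in the last 1 kb of genes, and the line for peaks that overlap Med12 stays under 2 throughout; the grey band marks 2 kb on each side.

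Peaks that overlapped Med12 showed less of this pattern. Their density was 0.88 (0.76 to 1.02) from 20 to 5 kb before the end, 1.15 (0.90 to 1.44) within 2 kb of it, 1.51 (0.97 to 2.24) in the last 1 kb and 0.89 (0.75 to 1.05) from 5 to 20 kb after it. The interval within 2 kb overlapped those on both sides. Of the 837 narrow start-free RNAP2 peaks at 3' ends, 97 overlapped a Med12 peak (11.6%, 9.59% to 13.9%). The background over all 10539 narrow start-free RNAP2 peaks was 25%, and the share was 18.8% (17.8% to 19.8%) elsewhere in genes and 38.0% (36.4% to 39.5%) between genes. In the Med12 list, 267 of 8567 start-free peaks (3.12%, 2.77% to 3.51%) lay at coding 3' ends, compared with 740 of 7900 start-free RNAP2 peaks without Med12 (9.37%, 8.74% to 10.0%). This RNAP2 share leaves out peaks that overlap Med12, and with them included 837 of 10539 lay at coding 3' ends. The 97 peaks with Med12 had a median score of 162, above the 76.5 of the members. The lists came from different libraries, and the part that depth had in these shares was not tested. From a member to the nearest Med12 peak the median gap was 58319 bp. A Med12 peak lay within 5 kb of 66 members (8.92%) and within 500 bp of 7, the closest being 35 bp from the peak at Ppp2r2a.

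Both the level and the maximum were higher at genes that also had RNAP2 at the start. For the ends of those genes the density was 11.02 (10.3 to 11.8) from 20 to 5 kb before the end, 20.7 (17.6 to 24.3) in the last 1 kb, 17.6 (14.7 to 20.9) in the first 1 kb after it and 4.38 (3.89 to 4.92) from 5 to 20 kb after it. For the ends of genes without RNAP2 at the start the density in the same windows was 1.53 (1.32 to 1.78), 3.15 (2.07 to 4.58), 3.18 (2.15 to 4.55) and 1.98 (1.72 to 2.28). The point values of both groups were highest within 1 kb of the end. Another coding 3' end lay within 2 kb for 22.3% of the genes with a peak and 14.1% of all coding genes. At ends with no other annotated gene within 5 kb, the density was 5.61 (5.21 to 6.04) from 20 to 5 kb before, 8.48 (6.77 to 10.5) in the last 1 kb, 8.45 (6.81 to 10.4) in the first 1 kb after and 2.37 (2.10 to 2.67) from 5 to 20 kb after. The maximum at the end was lower there, and its interval stayed clear of those of these outer windows. It overlapped the interval from 5 to 2 kb before the end, where the density was 5.91 (5.07 to 6.85).

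**Figure D2:**
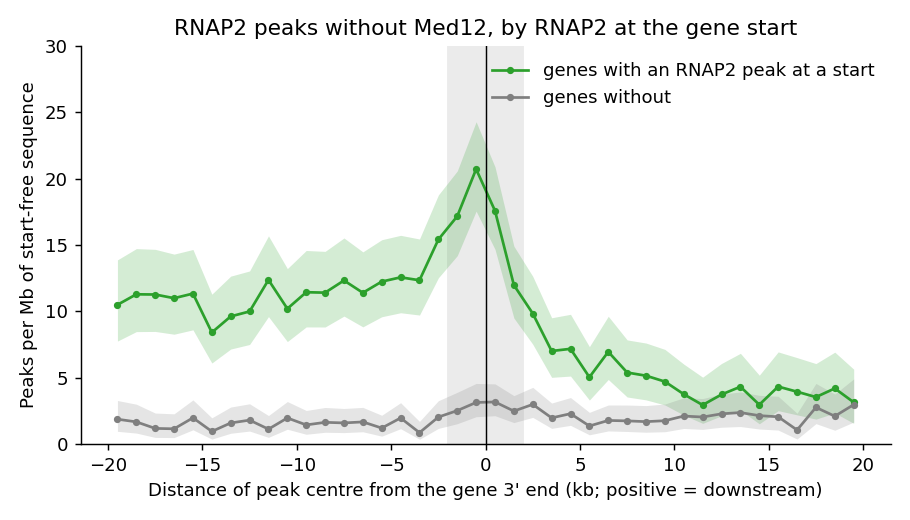
Density of RNAP2 peak centres without Med12 (peaks per Mb of start-free sequence, vertical axis) by distance from the coding 3' end in kb (horizontal axis), for genes with and without an RNAP2 peak within 1 kb of a start, with 95% Poisson bands. Genes with RNAP2 at the start reach 20.7 in the last 1 kb, and genes without it reach 3.18 in the first 1 kb after the end.

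Of the 752 genes with a peak at the 3' end, 602 had an RNAP2 peak at a start (80.1%, 77.0% to 82.8%), and the background over all coding genes was 42.2%. Genes with a peak at the 3' end also had higher RNAP2 scores at the start. The score is 10 times the negative log10 of the p-value given by the peak caller. The median of this score at the start was 822 for the 602 genes and 383 for all 9439 coding genes with RNAP2 there. A 3' end peak was found at 1.16% (0.99% to 1.36%) of genes without RNAP2 at the start. When genes with RNAP2 at the start were ordered by that score and divided into 4 groups of about equal size, the share was 3.69% and 3.64% in the lower groups, 6.53% (5.60% to 7.60%) in the next and 11.6% (10.4% to 13.0%) in the highest, with start scores over 926. The lower groups did not differ beyond counting error. The start and end peaks were called in the same library and were not measured independently.

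**Figure D3:**
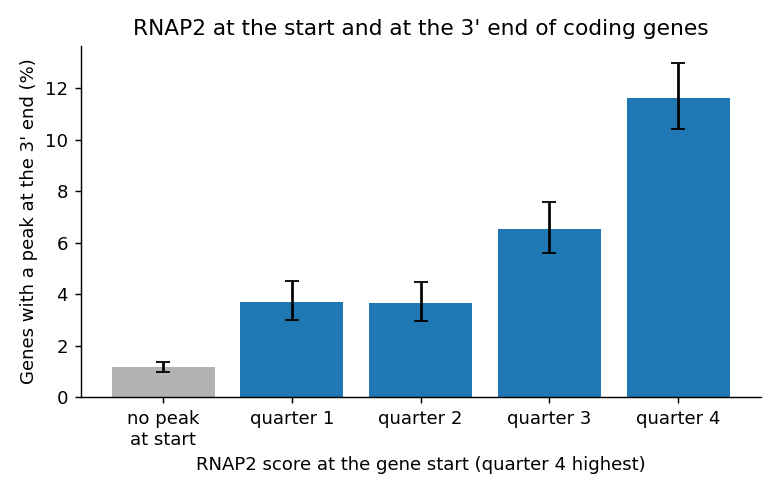
Share of coding genes with a peak at the 3' end (%, vertical axis) for genes without an RNAP2 peak at a start and for 4 groups of genes by RNAP2 score at the start (horizontal axis), with 95% Wilson intervals as bars. The share was 1.16% without RNAP2 at the start and 11.6% in the group with the highest start scores.

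Med12 lay at a start of 172 of the 752 genes (22.9%, 20.01% to 26.0%), beside a background of 9.37%. Among genes with RNAP2 at the start, the shares were 28.2% (24.8% to 31.96%) with a peak at the 3' end and 20.5% (19.7% to 21.3%) in all. In the group with the highest RNAP2 start scores they were 40% (34.4% to 45.9%) and 36.1% (34.2% to 38.0%), with overlapping intervals. When scores under 100 were left out of both lists, the share with Med12 at the start was 6.19% (4.09% to 9.28%) for genes with a peak at the 3' end and 2.36% (2.17% to 2.56%) for all coding genes. RNAP2 was also more often found along the body of these genes. A start-free RNAP2 peak without regard to Med12, in the gene and over 2 kb from any 3' end, was present in 45.3% (41.4% to 49.3%) of the 602 genes and in 17.2% (16.5% to 18.002%) of all genes with RNAP2 at the start. The difference was present at each gene length above 5 kb. The shares were 15.2% and 3.44% for genes of 5 to 20 kb, 57.5% and 13.3% for genes of 20 to 50 kb, and 77.2% and 44.8% for longer genes. Genes with a peak at the 3' end had a median length of 24242 bp, and all coding genes 15427 bp.

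The peaks were spread over both sides of the 3' end. The 3' end itself lay under 269 peaks (36.4%), 251 peaks (33.9%) lay wholly inside the gene and 220 (29.7%) wholly downstream. The centre was downstream in 336 (45.4%, 41.9% to 49.0%), and the median centre was 169.5 bp before the end. Peaks over the 3' end had the highest scores, with a median of 97.0, compared with 72.6 inside and 66.2 downstream. RNAP2 was found at the start of the nearest gene for 82.2% (77.1% to 86.3%), 87.6% (83.0% to 91.2%) and 74.1% (67.9% to 79.4%) of them. Peaks inside genes thus had a start peak more often than downstream peaks. By annotation, 272 centres lay in UTRs or other noncoding exons of coding genes, 63 in coding exons, 124 in introns, 273 between genes and 8 in noncoding genes or pseudogenes. The 136 members whose nearest gene had no RNAP2 at the start were downstream more often (57.4%, 49.0% to 65.4%) than the other 604 (42.7%, 38.8% to 46.7%), and were CpG-rich more often (11.03%, 6.80% to 17.4%, against 3.48%, 2.29% to 5.26%).

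**Figure D4:**
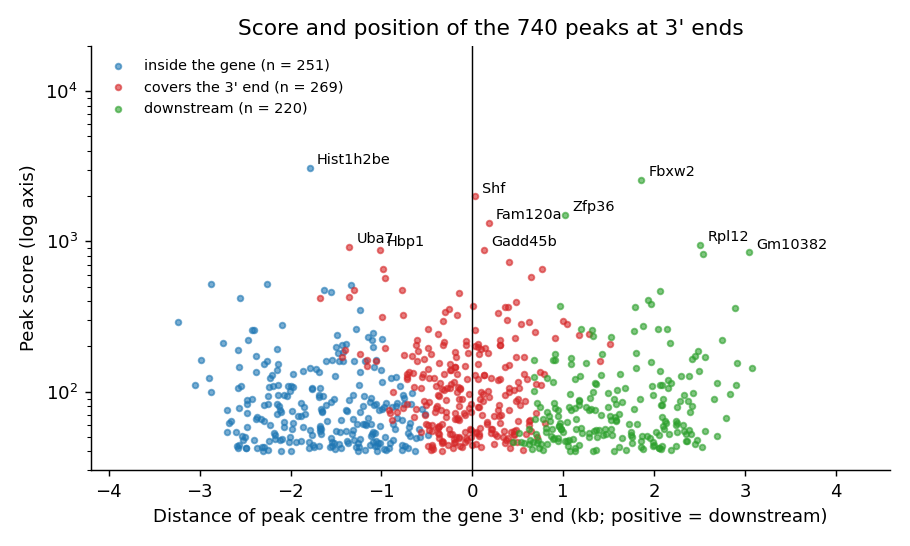
Score (vertical log axis) of each of the 740 peaks against the distance of its centre from the coding 3' end in kb (horizontal axis, positive downstream), coloured by whether the peak lay inside the gene, covered the 3' end or lay downstream. The 10 highest-scoring peaks are named, from Hist1h2be at 3100 to Gm10382 at 844, and most peaks score below 200.

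Most members were weak peaks. Scores ran from 40.04 at Ubap1 to 3100 at Hist1h2be, with a median of 76.5 and with 25% of peaks under 52.3 and 25% over 131. The exact value 3100 recurred at unrelated starts, such as those of Msx1 and Hand2, so differences among the highest scores may not be resolved. The medians were 63.8 for RNAP2 peaks without Med12 elsewhere in genes, 67.0 between genes and 249 at starts. A score under 50, which is weaker than the p-value threshold of 1e-05 named in the methods, was given to 151 members (20.4%). Only 54 of the 604 members with RNAP2 at the start of the nearest gene (8.94%) scored higher than that start. The median width was 1379 bp, compared with 1214 bp in genes and 1128 bp between genes. The widest member lay at Lpar1 with 3999 bp and a score of 336, and the narrowest peak over the limit was at Snrpb with 4014 bp and a score of 256. At the limit of distance, a member at Nkpd1 was 1995 bp from the end with a score of 52.2, and a peak at Trps1 just outside was 2006 bp away with a score of 88.1.

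The 10 highest scores came from genes of several kinds. The first, 2201 bp wide and scoring 3100, was centred 1791 bp before the 3' end of Hist1h2be, which encodes a histone H2B and scored 2339 at its start. The annotated gene spans 37383 bp, and the later annotation has a start named H2bc6 within 1 kb of this peak. The peak was thus away from starts only in GENCODE vM1. The later start was matched by sequence and not by gene name, so the peak may lie at a start of Hist1h2be itself. The peak of Fbxw2, an F-box protein of ubiquitin ligases, scored 2571 and was centred 1860 bp downstream, whereas the start of Fbxw2 scored 497. A peak scoring 1996 covered the facing ends of Shf and Duox1, with its centre 28 bp beyond the end of Shf, whose start scored 111. Zfp36, whose product triggers the decay of mRNAs with AU-rich elements, had a peak with a score of 1507 centred 1017 bp downstream, beside a start score of 1277. A Med12 peak lay 1573 bp from it. The peak at Fam120a, which encodes an RNA-binding protein, scored 1325 and was centred 181 bp downstream, with 548 at the start. These first 5 exceeded the start of the same gene as annotated in GENCODE vM1.

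The others of the first 10 scored between 844 and 951. Rpl12, a protein of the large ribosomal subunit, had a peak of 951 centred 2508 bp downstream, with 1749 at the start. A peak of 922 began 2855 bp before the end of Uba7 and ran past it, and belonged also to the 3' end of 6230427J02Rik. Uba7 is the activating enzyme of the ubiquitin-like protein ISG15 and had no RNAP2 peak at its start. Gadd45b, a stress-response gene, had a peak of 882 centred 125 bp after its end and 3100 at its start. The gene is 2114 bp long, and the nearest other RNAP2 peak was 78 bp away. Hbp1, an HMG-box transcription factor, had a peak of 876 that was 3602 bp wide. The gene model Gm10382 had a peak of 844 centred 3043 bp downstream. No Med12 peak at a start was seen for 9 of the 10 genes, and the start of Gm10382 had one with a score of 208.

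Peaks often came in short series. Another RNAP2 peak lay within 1 kb of 235 members (31.8%, 28.5% to 35.2%), compared with 23.6% (22.5% to 24.9%) of peaks elsewhere in genes, 7.76% (6.75% to 8.92%) between genes and 10.98% (10.3% to 11.7%) at starts. The 3' ends of 656 genes had 1 member, 89 had 2 and 7 had 3. The 7 were Vgll4, a cofactor of TEAD factors, Rab1, a GTPase of transport from the endoplasmic reticulum, Cep68, Tnpo1, a nuclear import receptor, Farp1, Tns3, a focal adhesion protein, and Mapkapk2, a kinase downstream of p38. At Tnpo1 the peaks scored 45.9, 82.1 and 169 at centres 1254 bp before and 526 and 2555 bp after the end. At Vgll4 they scored 82.3, 205 and 131 at 2484 and 71 bp before and 2193 bp after it. The strongest peak was the farthest downstream at Tnpo1 and the middle one at Vgll4. Rab1 and Cep68 face each other and shared the same 3 peaks. In all, 115 members were assigned to 2 genes, of which 112 lay between genes on opposite strands. RNAP2 was at the start of both genes for 73 of these 112, of 1 gene for 36 and of neither for 3. The most isolated members were weak. The peak at the olfactory receptor gene Olfr608 scored 41.6 and was 782875 bp from any other RNAP2 peak, and those at 1700020N01Rik and Rap1gap2 scored 52.5 and 58.9.

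Groups of genes differed in how often the 3' end held a peak, beside 3.36% of all coding genes, 6.38% (5.90% to 6.89%) of those with RNAP2 at the start and 11.6% of those in the highest group of start scores. The groups below were chosen with earlier results known, and the shares are descriptions. Among splicing factors, 15 of 40 had a peak (37.5%, 24.2% to 53.0%), and 39 of 40 had RNAP2 at the start. In the highest group of start scores the number was 13 of 33 (39.4%, 24.7% to 56.3%). The highest-scoring were Srsf6, a serine and arginine-rich splicing factor, with 570, Hnrnpm, an RNA-binding regulator of exon choice, with 427, and Hnrnpf with 157. The peak of Hnrnpm was shared with the facing gene Pram1. Of the splicing factors, 5 retained a peak when scores under 100 were left out of both lists. Over all coding genes, the number with a peak at the 3' end fell from 752 to 339 in that setting.

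The limb patterning list of 54 symbols matched 56 annotated entries. Genes of limb patterning had a peak at 17 of 56 ends (30.4%, 19.9% to 43.3%), 41 of 56 had RNAP2 at the start, and 12 of the 23 in the highest group of start scores had a 3' end peak (52.2%, 33.0% to 70.8%). Pitx1, the hindlimb identity factor, had the strongest, with a score of 422 inside the gene, 2551 bp before the end, and 99.4 at the start. RNAP2 was thus present at a hindlimb factor in cells labelled as forelimb, where the forelimb factor Tbx5 scored 1987 at its start. Bmp4, a ligand of the BMP family, had a peak of 385 that was centred 2054 bp before its end and was shared with Gm15217. This peak was 1001 bp from the nearest transcript start, and Bmp4 had no RNAP2 peak within 1 kb of its own starts. The T-box factors were represented by Tbx2, Tbx3, Tbx5 and Tbx15. The highest of their scores were 260, 292, 180 and 49.8, and Tbx2 and Tbx3 each had 2 peaks. Tbx2 had 135 at its start. For the Hedgehog effectors, the scores were 66.2 at Gli2 and 113 at Gli3, centred 1145 and 695 bp downstream, with 2834 and 2637 at the starts. FGF signalling was represented by the receptor Fgfr2 with 302, the receptor Fgfr1 with 76.2, the ligand Fgf10 with 56.2 and the inhibitor Spry2 with 104 and 49.2. Fgf10 scored 99.97 at its start. The other members were Bmp7 (75.7), Dlx6 (46.0), Lhx2 (94.3), Lhx9 (57.8) and Cyp26b1 (108), the last an enzyme that degrades retinoic acid. A RefSeq start lay within 1 kb of the peaks at Lhx2 and Tbx15.

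Of the Hox genes, 8 of 40 had a peak at the 3' end (20%, 10.5% to 34.8%), and 5 had one with a score of at least 100. The 40 are annotated entries matched by name and may include some that are not separate Hox genes. RNAP2 was at the start of 30 of the 40. In the highest group of start scores, 2 of 13 had a 3' end peak (15.4%, 4.33% to 42.2%), an interval that included the 11.6% of all such genes. A peak of 111 lay downstream of Hoxa2 and belonged also to the 3' end of Hoxa3. Hoxd9 had a peak of 54.2 centred 421 bp downstream and 1369 at the start. Another 4 of the Hox genes had no RNAP2 peak at the start. These were Hoxb9 with 61.6, Hoxb4 with 95.1, Hoxc8 with 107 and 110, and Hoxc11 with 66.2 and 220. The peak at Hoxb4 lay near a start of that gene in the later annotation. No 3' end in the 850 kb upstream of Hoxa13 had a member, and none was found at Hoxa13, Hoxd13 or Hoxd12, which had start scores of 1726, 1855 and 1855.

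Cartilage and bone genes had a peak at 5 of 27 ends (18.5%, 8.18% to 36.7%), of which 3 had a score of at least 100. RNAP2 was at the start of 14, of which 4 had a 3' end peak, and 1 of the 4 in the highest group of start scores had one. These were Nog, the BMP antagonist, with 179, Scx, a tendon factor, with 137, Sp7, an osteoblast factor, with 131, Col2a1, the main collagen of cartilage, with 75.7, and Gdf5, a joint ligand, with 60.2. Sp7 had no RNAP2 at its start and Col2a1 had 2172. Immediate early genes, which respond within minutes to stimuli and are short, had a peak at 6 of 31 ends (19.4%, 9.19% to 36.3%). RNAP2 was at the start of 30, and 5 of the 25 in the highest group of start scores had a 3' end peak (20%, 8.86% to 39.1%). Besides Zfp36 they were Nr4a1 with 44.2 and 256, Maff with 197, Fosb with 106, Btg2 with 99.4 and Rhob with 53.0. The start scores of Nr4a1, Btg2 and Rhob were 3100.

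In housekeeping groups the shares within the highest group of start scores had intervals that included the 11.6% of all such genes. They were 11 of 67 ribosomal protein genes (16.4%, 9.42% to 27.1%), 3 of 15 translation factors (20%, 7.05% to 45.2%), 3 of 17 cytoskeletal genes (17.6%, 6.19% to 41.03%) and 3 of 15 factors of 3' end processing and termination (20%, 7.05% to 45.2%). Ribosomal protein genes had a peak at 12 of 85 ends (14.1%, 8.26% to 23.1%), with RNAP2 at the start of 81. After Rpl12 the highest scores were 524 at Rps15a, which had 2 peaks, and 259 at Rps9, whose end faces Lilrb3. With scores of at least 100, 6 of these genes retained a peak. Translation factors had a peak at 5 of 33 ends, led by Eef1g with 131, Eif2s2 with 111 and Eif3a with 63.4. Cytoskeletal genes had one at 4 of 32, led by Lmnb1 with 115, Tubb5 with 105 and Actn1 with 79.6. Of the factors that cut and polyadenylate transcripts or end transcription, all 34 had RNAP2 at the start and 3 had a peak at their own 3' end (8.82%, 3.05% to 23.0%). They were Rbbp6 with 159, Cpsf6 with 47.9 and Pcf11 with 41.9.

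Replication-dependent histone genes had RNAP2 at 66 of 67 starts, 62 of them in the highest group of start scores, and a peak at 1 of 67 ends (1.49%, 0.26% to 7.98%). That peak was the one at Hist1h2be, which lay within 1 kb of the later start named H2bc6. In these genes a median of 41.8% of the 2 kb on both sides of the end lay outside start intervals and was open to a member, compared with 100% over all coding genes, 52.2% in ribosomal protein genes and 69.0% in Hox genes. Collagen genes were near the background of all coding genes, with RNAP2 at 19 of 43 starts (44.2%) and a peak at 1 of 43 ends (2.33%, 0.41% to 12.1%), that of Col2a1. Groups of genes typical of other tissues had RNAP2 at few or no starts, such as 3 of 25 skeletal muscle and 4 of 16 neuronal genes, and few or no peaks at the ends. There was 1 peak among 1113 olfactory receptor genes and none among 51 keratin, 25 skeletal muscle, 16 neuronal, 14 liver, 14 endothelial and 13 blood genes. The median share of the window open to a member was 50.0% in olfactory receptor and 61.8% in blood genes, and 100% in the others. A count of 0 of 51 leaves room for a share of up to 7.005%, and 0 of 13 for up to 22.8%, by the upper Wilson limits.

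**Figure D5:**
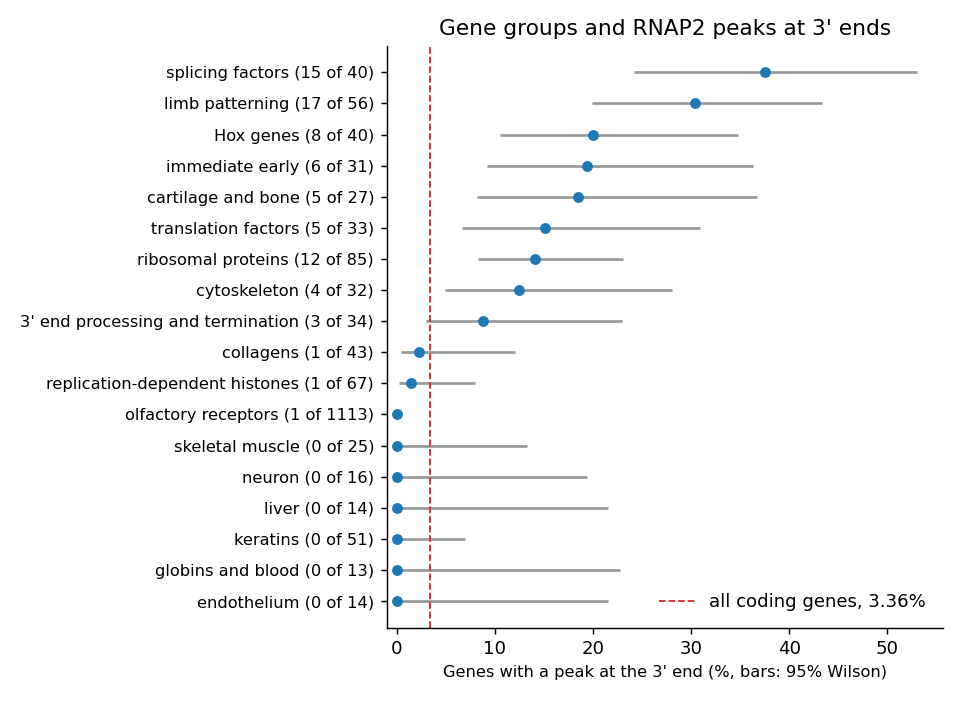
Share of genes with a peak at the 3' end (%, horizontal axis) for each gene group (vertical axis, with the number of genes), with 95% Wilson intervals as bars and a dashed line at 3.36% for all coding genes. Splicing factors (37.5%) and limb patterning genes (30.4%) have the highest shares, and 6 groups have no peak.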

How the data were processed

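Occupancy of RNAP2 and Med12 was measured by ChIP-seq in E12.5 distal forelimb, with 1 library per antibody and 0 replicates; the 1 input library was not analysed here. Per the labels and the study's methods, the authors aligned reads without their first base to mm9 (Bowtie), discarded redundant ones and ran MACS 1.4.1 at a p-value threshold of 1e-05. The control is not named among the listed settings. The deposited score is the p-value of a peak as −log10, multiplied by 10; the lists reach down to 40, below the 50 that the threshold gives. Scores depend on depth and width and were compared only within a list. The lists give positions and scores alone, so the depth behind a peak is unknown.

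Peaks were assigned to gene ends with Python 3.11.15 and numpy 2.4.6, with an overlap of at least 1 bp, against GENCODE vM1 on NCBIM37, the same build as mm9; bedtools 2.31.1 gave the same 740 peaks. Distances were measured to the nearest 3' end of a gene span. A gene had a peak at the start when one lay within 1 kb of the start of any of its transcripts, and the highest score was used. Wilson and exact Poisson intervals at 95% came from scipy 1.17.1 and figures from matplotlib 3.10.9. CpG ratios and hexamers were read from the genome. RefSeq promoter sequences (GRCm38.p6) were matched to mm9 by 100 exact bases at the start. The rule was tested on simulated peaks with known classes.

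The members, the gene groups and the alternatives were chosen with earlier results of these data known. Genes are named by a rule: the 10 highest-scoring members, genes with most members, the group members with peaks (3 highest scores in large groups), Hox genes, and peaks at the borders of the rule or far from others. The genes in this rule with 3 peaks exceed 5 because of a tie. Alternatives were a minimum score, other distances and widths, a gap to Med12, assignment by centre and isolated ends. A result on 1 gene of the Hox group is not reported here.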

Additional observations from a re-analysis of the deposited data

How the results depend on the processing

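Of 119 recomputed values, 88 stayed within the interval of the reported value or, for counts, within 1.5 times of it. The share of peaks centred downstream, 45.4%, was 40.7% with starts widened to 5 kb and kept within its interval in every other alternative. The number of peaks, 740, was 300 at a score of at least 100 in both lists, 1184 at 5 kb from the 3' end, 408 with starts widened to 5 kb, and 415 at ends with no other gene within 5 kb. The density within the window, 9.01 per Mb, was 3.65 at a score of at least 100, 7.37 at 50, 10.3 and 6.97 for windows of 1 and 5 kb, 8.01 with starts widened to 5 kb, 7.34 for peaks under 2000 bp and 7.51 at isolated ends. The share of genes with RNAP2 at the start was 72.3% at a score of at least 100. The share with Med12 at the start was 6.19% at a score of at least 100, 17.4% at 50, 26.5% with starts widened to 5 kb and 26.0% at isolated ends. The share of RNAP2 peaks at 3' ends that overlap Med12 was 14.8% at isolated ends. The median score was 163 at a score of at least 100, 93.0 at 50 and 65.3 for peaks under 2000 bp. The median width was 1931 bp at a score of at least 100, 1522 bp at 50, 1304 bp within 5 kb and 1244 bp for peaks under 2000 bp. AATAAA or ATTAAA was found at 73.3% of the 3' ends, and AATAAA at 62.5% for members with a score of at least 100. With only peaks of at least 100, splicing factors with a peak fell from 15 to 5, ribosomal protein genes from 12 to 6, Hox genes from 8 to 5 and cartilage and bone genes from 5 to 3, while limb patterning genes went from 17 to 12. Over all coding genes, the number with a peak fell from 752 to 339 in the same setting. Leaving out CpG-rich members or members with a RefSeq start was added after the data were seen. It moved no count by more than 1.5 times among splicing, limb patterning, Hox, ribosomal protein, cartilage and bone, and immediate early genes. The other groups were not recomputed. The only histone gene with a peak, Hist1h2be, had a RefSeq start within 1 kb of that peak.

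With 1 library per antibody, no value has a biological error, and the lists hold no read counts at a peak. The RNAP2 and Med12 libraries were not of equal depth according to the study's methods, which limits comparisons of the lists. No paired analysis was possible because no group has a replicate. A minimum score applied to both lists, so that fewer Med12 peaks were there to overlap. The cause of the other shifts was not tested.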
